A study of Mus musculus with 16 samples.

Results

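The 48 genes described here act in mitosis, in building the spindle and in cytokinesis, and they were taken by symbol from the table of read counts per gene. All 48 were found among its 55416 genes. The counts come from RNA-seq of erythroblasts, the immature red cells, sorted from mouse foetal livers at E13.5 as S1 cells and as the later S3 cells, by the surface proteins Ter119 and CD71. Each of 8 embryos gave 1 library per stage, 16 in all. The groups were wild-type (WT, embryos 0, 1, 5 and 8), heterozygous for a deletion of the *Nprl3* promoter (Het, embryos 3 and 4) and homozygous for it (KO, Nprl3-/-, embryos 2 and 9). *Nprl3* encodes a subunit of GATOR1, a complex that restrains mTORC1 signalling. The deletion is constitutive, so that cells other than erythroblasts also lack it, it leaves the α-globin enhancers in place, and homozygous embryos die before birth. Embryos 1, 5 and 2 were female, and embryos 0, 8, 3, 4 and 9 were male, so that both Het embryos were male.

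Cells enter mitosis when cyclin B bound to CDK1 is activated by CDC25 phosphatases. The spindle assembly checkpoint then holds back the anaphase-promoting complex until every kinetochore is attached, after which cohesin is cleaved, chromosomes part and an actomyosin ring divides the cell. Many of the genes involved share a pattern of transcription that peaks in G2 and mitosis. S1 is the earlier and S3 the later of the sorted stages, and erythroblasts go on dividing while they begin to make haemoglobin. In bulk RNA a higher level can mean more cells in G2 and mitosis or more RNA per such cell, and these cannot be told apart.

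The libraries held 23331156 to 36035368 counts at S1 and 20666044 to 37609502 at S3. In the libraries of the KO embryos *Nprl3* itself had 0.319 and 0.676 CPM (counts scaled to a common library size) at S1, against 22.6 to 32.6 in WT and 12.65 and 12.98 in Het. At S3 it had 107 and 111 CPM in KO, against 146 to 204 in WT (log2 fold change −0.55, edgeR adjusted p = 0.381), and 146 and 118 in Het, of which embryo 3 lay within the WT range. Polyadenylated transcripts that start at the α-globin enhancers can be counted with *Nprl3*, so that its counts do not measure its promoter's output alone. Erythroid identity followed the labels, in that all 4 progenitor markers fell and all 8 terminal erythroid markers rose from S1 to S3 in WT. The labels' tissue field names an embryonic stem cell line, whereas the titles and the sorting protocol give foetal liver, which was used. At S1, WT embryos 0 and 8 stood apart from 1 and 5, with summed hepatoblast markers at 377 and 349 CPM against 70.7 and 85.8, and summed neutrophil markers at 205 and 117 against 1382 and 1158. At S3 the 11 neutrophil markers summed to at most 13.1 CPM in any library, and the 10 megakaryocyte markers to 54.9 to 120 CPM.

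Levels per kilobase of exon (RPKM, after scaling by TMM, the trimmed mean of M values) spanned a wide range within this machinery. At S1 the highest mean over the 8 libraries was that of *Cdc20*, the activator of the anaphase-promoting complex, at 161.8 RPKM (range 130.8 to 184.5). *Ccnb2*, a B-type cyclin, followed at 142.6 (128.7 to 158), and the ranges of the pair overlapped. The lowest was *Cenpf*, a large kinetochore protein, at 2.75 (2.04 to 4.15). At S3 *Ube2c*, the ubiquitin-conjugating enzyme of the anaphase-promoting complex, stood above all others at 1397 RPKM (1118 to 1682). *Ccnb2* came next at 690.3 (563.2 to 798.4) and then *Ccna2*, cyclin A, at 438.5 (360.6 to 496.9), and these 3 ranges did not overlap. *Ccnb1* at 380.6 (326 to 413) overlapped with *Ccna2*. *Foxm1*, the transcription factor of many G2 and mitotic genes, was lowest at S3, at 12.9 (7.69 to 17.7).

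The order of levels was broadly kept between stages, with a Spearman correlation of 0.81 across the 48 genes, which share libraries and exon lengths. Most genes changed place. *Cdc25b*, a phosphatase that activates CDK1, went from place 41 to 6. *Nusap1*, a spindle-associated protein, went from 26 to 5, and *Mki67*, a coat protein of mitotic chromosomes, from 40 to 24. *Mad2l1*, *Bub1* and *Bub1b*, all of the spindle checkpoint, went down from 19 to 34, from 24 to 36 and from 18 to 29, and the kinesin *Kif20b* from 32 to 44. *Cdc20*, the highest at S1, was in place 9 at S3, and *Spc24*, a subunit of the NDC80 complex that holds microtubules, went from 8 to 18.

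**Figure D1:**
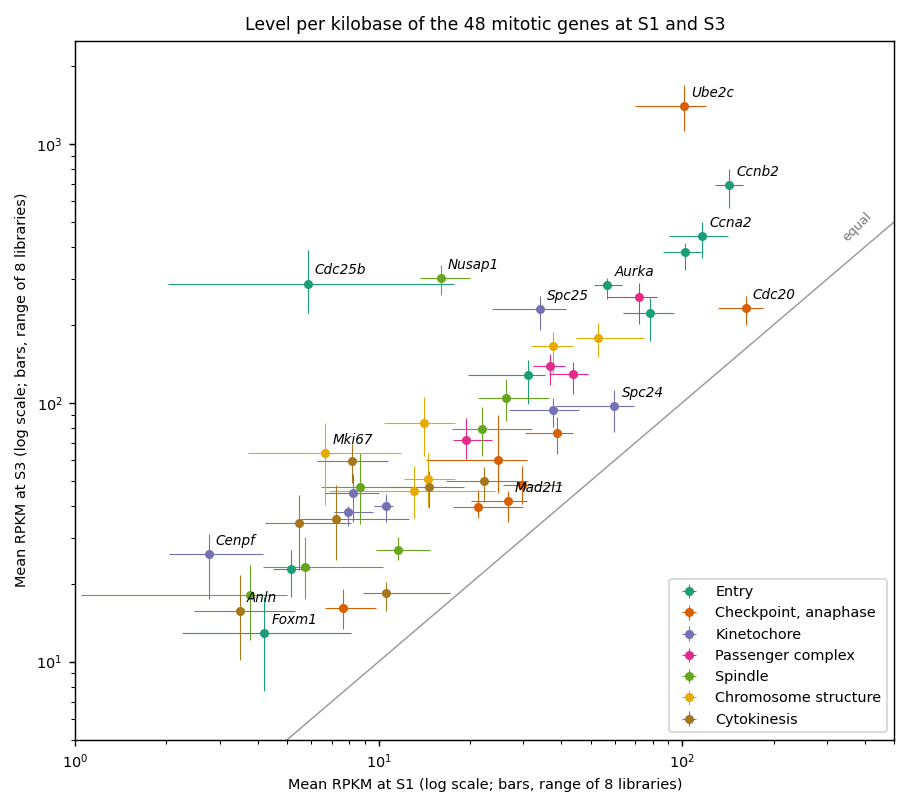
Mean RPKM of the 48 genes at S1 (horizontal, log scale) and S3 (vertical, log scale), with bars for the range of the 8 libraries of each stage and colours for the role. All points lie above the line of equal levels, from Cdc20, which is closest to it, to Cdc25b, which rose from 5.83 to 288.6.

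The first comparison asked how the genes changed between the stages. In WT all 48 were higher at S3 (edgeR's quasi-likelihood test, p adjusted by Benjamini-Hochberg over all 13514 genes tested, largest of the 48 = 0.00433). Among all genes tested 30.6% were called higher and 35% lower. In each of the 48 genes all 4 S3 libraries lay above all 4 S1 libraries. The median log2 fold change was 2.02, against −0.08 over all genes. KO libraries gave 48 of 48 called higher (median 1.91, largest adjusted p 0.0299 in edgeR, background 24.7% higher and 28.4% lower), and Het libraries also 48 of 48 (median 2.09, largest adjusted p 0.000116, background 36.3% higher and 39.6% lower). Within each of the 8 embryos all 48 genes were higher at S3, and the median rise per embryo lay between 1.83 and 2.02 on the log2 scale of CPM plus 0.5. Together the genes took 0.760% to 0.963% of all counts at S1 and 1.71% to 2.15% at S3.

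The sizes depend on the scaling. S3 libraries put 10.0% to 11.8% of their counts into globin genes and S1 libraries at most 1.07%. With globin genes left out of the TMM scaling, the WT medians stayed at 2.02 for the 48 genes and −0.08 for all genes. The part of globin in the shift with total counts was not tested. With total counts alone, the median of all genes in WT shifted to −1.15, and that of the 48 genes to 0.99. On that scale 35 were called higher and 1 lower in WT (background 13.3% and 64.3%), 39 and 1 in KO (11.5% and 54.2%), and 38 and 2 in Het (17.2% and 65.1%). The gene called lower in each genotype was *Cdc20*, with *Bub1b* beside it in Het. *Cdc20* is thus a gene whose direction turns with the scaling, at 0.67 with TMM and −0.36 with total counts in WT, and both values stand above the median of all genes on their own scale. *Bub1*, *Bub1b*, *Mad2l1*, *Spc24* and *Kif20b* also had total count estimates below 0 in WT, from −0.27 to −0.10, none past the threshold. With upper-quartile scaling 45 were called higher in KO, without *Mad2l1*, *Cdc20* and *Spc24*, and without a filter 46, without *Mad2l1* and *Cdc20* (background 21.1% and 14.2%).

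**Figure D2:**
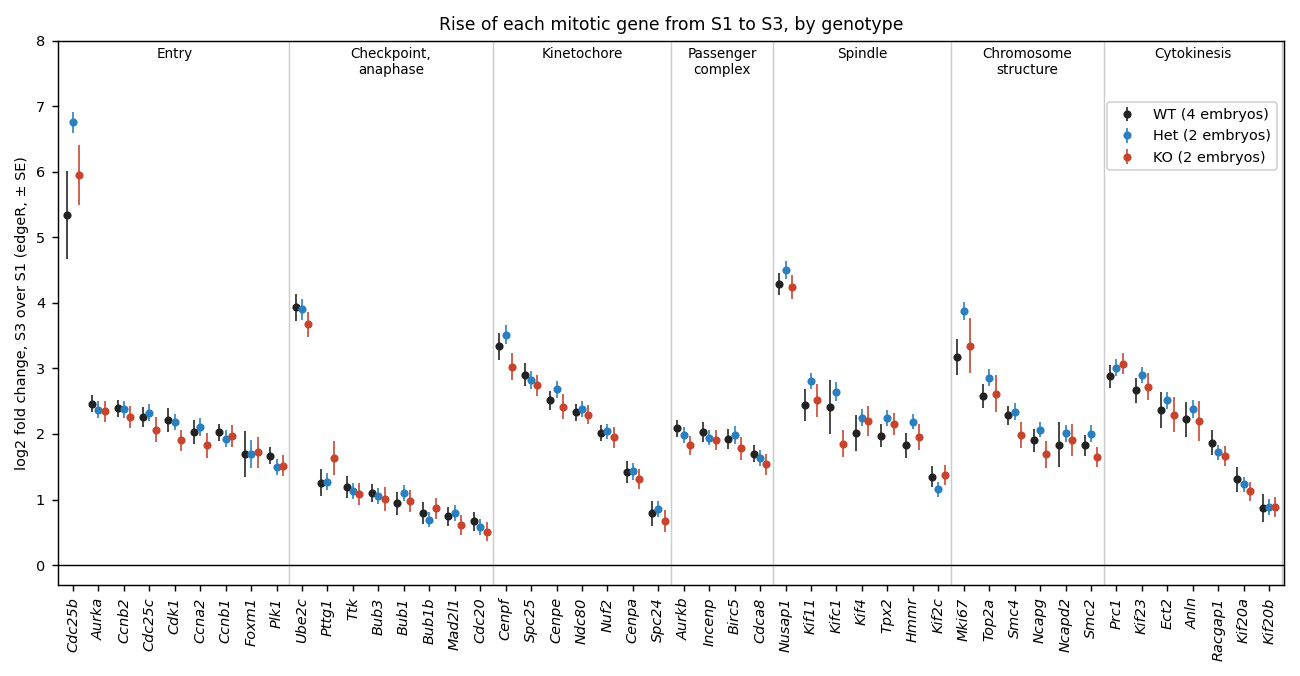
Log2 fold change from S1 to S3 (vertical axis, edgeR with TMM, bars ± standard error) of each gene in WT, Het and KO, grouped by role. All estimates lie above 0, and the checkpoint group holds most of the smallest rises.

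Genes of entry into mitosis rose with a median of 2.21 in WT. *Cdc25b*, on chromosome 2 (chr2:131028869-131040417 in mm39, plus strand), had the largest rise of all. At S1 it had 33.5, 7.57, 12.8 and 65.8 CPM in WT embryos 0, 1, 5 and 8, 10.2 and 9.05 in Het embryos 3 and 4, and 11.6 and 23.3 in KO embryos 2 and 9. At S3 the same embryos gave 1340, 826, 1040 and 1445 CPM in WT, 1032 and 891 in Het, and 851 and 1184 in KO. Every S3 library thus lay above every S1 library, whereas the S1 values differed among WT embryos, with 0 and 8 above 1 and 5. It rose by 5.34 on the log2 scale (standard error 0.67, edgeR, adjusted p = 5.62e-05) in WT, 5.95 in KO and 6.75 in Het. Its relative *Cdc25c* rose from 23.1 to 29.3 CPM at S1 to 102 to 133 at S3 in WT (log2 fold change 2.26). The cyclins rose by similar amounts, *Ccnb2* by 2.40, *Ccna2* by 2.03 and *Ccnb1* by 2.02, and their partner kinase *Cdk1* by 2.21. *Ccnb2*, the highest of this group per kilobase, had 227, 214, 224 and 200 CPM at S1 and 1005, 1123, 1222 and 1006 at S3 in WT. *Foxm1*, the lowest, had 27.1, 13.2, 22.7 and 46.5 at S1 and 99.1, 60.3, 77.1 and 102 at S3 (log2 fold change 1.69, standard error 0.35). *Aurka*, a kinase of centrosomes and spindle poles, rose by 2.46 and *Plk1*, a kinase with many mitotic roles, by 1.67, the smallest rise in the group.

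The checkpoint and anaphase group rose least, with a median of 1.02. *Ube2c* (chr2:164611818-164620742, plus strand) was the exception, with 310, 272, 276 and 182 CPM at S1 and 3279, 3997, 4056 and 3844 at S3 in WT. Het libraries had 274 and 304 at S1 and 4373 and 3590 at S3, and KO libraries 271 and 223 and then 3019 and 2908. Its log2 fold change was 3.93 (standard error 0.20) in WT, 3.67 in KO and 3.90 in Het. The other 7 genes of the group, *Pttg1*, *Ttk*, *Bub3*, *Bub1*, *Bub1b*, *Mad2l1* and *Cdc20*, rose by 1.25 down to 0.67. *Cdc20* (chr4:118290098-118294549, minus strand) went from 345, 244, 305 and 292 CPM to 482, 421, 464 and 435, so that its S3 values lay only a little above its S1 values, without overlap. *Ttk*, the checkpoint kinase also known as Mps1 and the lowest of the group per kilobase, went from 38.3, 32.7, 38.3 and 48.3 to 92.6, 78.5, 79.4 and 94.1 CPM. *Mad2l1*, which binds and restrains CDC20, rose by 0.75. Outside this group only *Spc24* and *Kif20b* rose by less than its *Bub1*, which rose by 0.94.

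At the kinetochore the median was 2.33. *Cenpf* (chr1:189372803-189420283, minus strand) had 42.4, 64.0, 35.0 and 48.03 CPM at S1 and 480, 428, 442 and 477 at S3 in WT, a log2 fold change of 3.34 (standard error 0.20). *Cenpe*, a kinesin of the kinetochore, went from 79.3, 86.7, 66.8 and 77.7 to 440, 406, 390 and 458 (2.52). The 4 subunits of the NDC80 complex did not rise alike, with *Spc25* at 2.90, *Ndc80* at 2.33, *Nuf2* at 2.01 and *Spc24* at 0.79. *Spc25* went from 120, 124, 108 and 75.2 to 712, 825, 806 and 720 CPM, and *Spc24* from 169, 176, 165 and 98.5 to 215, 286, 287 and 219. *Cenpa*, the histone H3 variant of centromeres, rose by 1.42.

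The 4 genes of the chromosomal passenger complex, which corrects faulty attachments and marks the division site, rose within a narrow band of 1.70 to 2.09. *Birc5*, or survivin, the highest per kilobase, had 267, 266, 262 and 192 CPM at S1 and 805, 983, 972 and 821 at S3 in WT. *Incenp*, the scaffold and the lowest, had 82.7, 78.9, 84.0 and 102 and then 337, 298, 341 and 376. The kinase *Aurkb* was at 2.09 (standard error 0.13) and *Cdca8*, which binds the complex to chromosomes, at 1.70 (0.13).

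Among spindle genes, with a median of 2.02, *Nusap1* (chr2:119448779-119481725, plus strand) stood out in size and evenness. It had 75.0, 62.3, 61.7 and 81.2 CPM at S1 in WT, 62.1 and 59.1 in Het, and 55.4 and 63.8 in KO. At S3 it had 1274, 1261, 1309 and 1383 in WT, 1324 and 1206 in Het, and 1066 and 1056 in KO. The rise per embryo ran only from 4.04 to 4.40, and its log2 fold change in WT of 4.29 (standard error 0.17) had the smallest p of the 48 genes. *Kifc1*, a minus-end kinesin and the lowest of the group, was uneven, with 16.4, 3.58, 15.6 and 12.5 CPM at S1 and 52.9, 71.4, 80.5 and 41.5 at S3 (2.41, standard error 0.42). *Kif11*, the motor that pushes spindle poles apart, rose by 2.44, *Tpx2*, an activator of Aurora A, by 1.98, and *Kif2c*, a microtubule depolymerase, by 1.35. The chromokinesin *Kif4* rose by 2.02 and *Hmmr*, a microtubule-binding protein, by 1.83.

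Genes of chromosome structure had a median of 2.09. *Mki67*, which coats mitotic chromosomes and is the common marker of proliferating cells, went from 77.6, 119, 47.7 and 97.9 to 841, 650, 634 and 824 CPM in WT (3.18, standard error 0.28), and by 3.88 in Het. *Top2a*, the topoisomerase that untangles sister DNA, went from 149, 151, 118 and 161 to 949, 679, 750 and 930 (2.58, standard error 0.18). The condensin subunits rose by 2.28 (*Smc4*), 1.90 (*Ncapg*), 1.84 (*Ncapd2*) and 1.82 (*Smc2*). *Smc2*, highest per kilobase, had 282, 409, 267 and 262 CPM at S1 and 983, 1108, 1039 and 1005 at S3. *Ncapd2*, lowest at S3 (45.7 RPKM) but above *Mki67* at S1 (13.1 against 6.68), had 89.9, 43.2, 78.2 and 151 and then 358, 224, 302 and 353.

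Cytokinesis genes had a median of 2.22. *Prc1*, which bundles the microtubules of the spindle midzone, went from 69.7, 86.7, 57.8 and 88.4 to 571, 471, 546 and 541 CPM in WT (2.88, standard error 0.18). *Kif23* went from 50.0, 44.1, 42.2 and 64.0 to 332, 258, 277 and 347 (2.67, standard error 0.19), and *Racgap1*, its partner in centralspindlin, rose by 1.87. *Ect2* and *Anln*, which set up the contractile ring, rose by 2.37 and 2.22. *Anln*, the lowest per kilobase, had 29.9, 41.3, 24.4 and 48.1 at S1 and 196, 113, 138 and 190 at S3. *Kif20a*, the highest at S1 but below *Prc1* at S3 (49.9 against 59.5 RPKM), had 94.6, 72.1, 92.1 and 134 and then 245, 215, 235 and 238, and *Kif20b* rose by 0.87. Some 29.3% of the exon bases of *Kif20a* also belong to *Cdc23* and 22.8% of those of *Ube2c* to *Tnnc2*, and such reads were not counted for either gene. In all, 15 of the 48 genes shared exon bases with another gene, 7 of them over 10%.

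The genes kept much the same order of rises in each genotype. Across the 48 genes, which are not independent of each other, the log2 fold changes of WT correlated with those of KO at Pearson's r = 0.98 and with those of Het at 0.98, in fits that share no library. In the test of the difference itself, the interaction of KO and stage, 0 of the 48 genes passed in edgeR, 0 had an unadjusted p under 0.05 (beside 195 higher and 225 lower of 13485 genes), and DESeq2 called 0. Among all genes 0.00742% were called with a larger rise in KO and 0% with a smaller one. The smallest p were those of *Smc4* (−0.28, standard error 0.22, adjusted p = 1.00 in edgeR), *Aurkb* (−0.24, 0.19), *Cdk1* (−0.29, 0.26), *Pttg1* (0.39, 0.35), *Cenpf* (−0.29, 0.29) and *Ube2c* (−0.24, 0.27). The median of the 48 was −0.08 (all genes 0.04).

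Other lists of the division machinery are set beside the 48 genes for S3 against S1 in WT, with the same test, to be read beside the 30.6% of all genes called higher and 35% lower. The genes named after each list are its 2 of smallest p. Of 16 subunits and partners of the anaphase-promoting complex, 7 were called higher and 3 lower (median log2 fold change 0.27), with *Fzr1* (4.05) and *Ube2s* (2.39). Of 17 genes of cohesin and its regulators, 13 were higher and 1 lower (1.05), with *Esco2* (2.24) and *Sgo1* (1.85). Of 35 other kinetochore and centromere genes, 29 were higher and 2 lower (1.30), with *Cenpl* (2.83) and *Mad2l1bp* (3.04). Of 15 genes of augmin and the γ-tubulin ring, 10 were higher and 1 lower (0.55), with *Haus8* (1.63) and *Tubg1* (0.97). Of 13 centrosome genes 10 were higher and 0 lower (1.27), with *Tacc3* (1.82) and *Plk4* (1.63). Of 21 other genes of entry and exit 15 were higher and 2 lower (1.11), with *Fbxo5* (1.92) and *Ensa* (1.86). All 5 other condensin and chromokinesin genes were higher (1.54), with *Kif22* (1.77) and *Ncaph* (1.98). Of 30 other motors and cytokinesis genes 26 were higher and 2 lower (1.65), with *Depdc1b* (4.12) and *Cdca3* (2.46). Of 45 DNA replication genes, which peak in S phase, 30 were higher and 1 lower (0.69), with *Rrm2* (2.37) and *Lig1* (1.42).

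Since the genes rose together, their promoters were read for the letters of a pair of elements known from G2 and mitotic genes. These were the cell cycle genes homology region (CHR, searched as TTTGAA or TTCGAA on either strand) and the CCAAT box (CCAAT on either strand), over 250 bases before the start. RefSeq promoters in build GRCm38.p6 were at hand for 39 of the 48 genes, the other 9 being *Aurkb*, *Ccna2*, *Cdc25c*, *Foxm1*, *Incenp*, *Kif20a*, *Smc4*, *Spc24* and *Tpx2*. CHR letters were in 15 of the 39 (38.5%), against 19.6% of all genes in that table, and CCAAT in 30 (76.9%) against 37.5%. At least 2 CCAAT were in 51.3% against 11.5%, and CHR with CCAAT in 35.9% against 7.93%. Among 37 replication genes 21.6% had CHR and 59.5% CCAAT. A match of letters is a description and not a bound site. The median rise in WT was 2.21 for the 15 genes with CHR letters and 2.01 for the 24 without.

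Shown here are the 120 bases before the start, 5′ to 3′ on the gene's strand, for genes with several matches, for the gene of the smallest rise and for both genes of the largest. *Cdk1*, *Top2a* and *Ccnb2* have further matches upstream of the bases shown, as does *Ube2c*. Capitals mark CHR or CCAAT letters, read on either strand (TTCAAA and ATTGG are the reverse forms).
Cdk1 (GRCm38.p6 chr10:69352913-69353032, minus strand, log2 fold change 2.21): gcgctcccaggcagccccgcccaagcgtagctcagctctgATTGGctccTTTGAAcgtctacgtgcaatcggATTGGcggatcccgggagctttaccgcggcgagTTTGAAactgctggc
Top2a (chr11:99024190-99024309, minus strand, 2.58): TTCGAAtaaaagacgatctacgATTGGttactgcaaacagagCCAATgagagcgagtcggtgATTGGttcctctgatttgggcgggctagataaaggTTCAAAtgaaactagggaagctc
Ube2c (chr2:164769809-164769928, plus strand, 3.93): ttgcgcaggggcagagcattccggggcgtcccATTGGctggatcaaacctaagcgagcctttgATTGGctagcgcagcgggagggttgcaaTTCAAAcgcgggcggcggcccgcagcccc
Ccnb2 (chr9:70421555-70421674, minus strand, 2.40): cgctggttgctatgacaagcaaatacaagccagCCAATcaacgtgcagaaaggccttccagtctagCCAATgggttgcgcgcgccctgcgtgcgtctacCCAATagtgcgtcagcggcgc
Cdc20 (chr4:118437344-118437463, minus strand, 0.67): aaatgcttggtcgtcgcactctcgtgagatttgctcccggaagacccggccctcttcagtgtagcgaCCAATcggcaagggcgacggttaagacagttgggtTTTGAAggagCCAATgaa
Cdc25b (chr2:131186828-131186947, plus strand, 5.34): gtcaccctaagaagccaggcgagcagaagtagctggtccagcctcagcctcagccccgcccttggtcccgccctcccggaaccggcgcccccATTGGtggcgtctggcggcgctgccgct
Nusap1 (chr2:119618178-119618297, plus strand, 4.29): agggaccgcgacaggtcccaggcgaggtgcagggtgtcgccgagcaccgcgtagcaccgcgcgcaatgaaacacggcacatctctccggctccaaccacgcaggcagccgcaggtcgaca
*Cdk1* and *Ube2c* carry CHR letters close to the start with CCAAT letters upstream of them, and so does *Cdc20*, which rose least. *Nusap1*, with the second largest rise, has neither in its 250 bases, and *Cdc25b* has 1 CCAAT and no CHR letters.

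Before the genotypes are compared, the spread within WT is described by the sex of the embryos. At S3 both male WT libraries (0 and 8) lay above both female ones (1 and 5) in 23 of the 48 genes and below them in 15, so that only 10 overlapped. Over all genes tested 26.4% lay above and 34% below. At S1 the counts were 13 above (21.6% of all genes) and 2 below (30.2%), so that most of the 48 genes overlapped between the sexes there. The male libraries were higher at S3 in *Anln* (196 and 190 CPM against 113 and 138), *Cdc25b* (1340 and 1445 against 826 and 1040) and *Kif11* (459 and 476 against 304 and 330). They were lower in *Kifc1* (52.9 and 41.5 against 71.4 and 80.5), *Spc24* (215 and 219 against 286 and 287) and *Pttg1* (89.7 and 93.5 against 114 and 122).

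The KO pair, embryo 9 (male) and embryo 2 (female), differed in the same direction. Of the 23 genes higher in WT males, 22 were higher in KO 9 than in KO 2 at S3, and of the 15 lower ones 14 were lower. Over all genes tested 77.2% had the same sign in both genotypes at S3, against 91.7% of the 48. The genes higher in WT males had a median exon length of 5514 bases and the lower ones of 4217. The same WT embryos differed in hepatoblast and neutrophil markers at S1, and the part of sex, cell composition or library preparation in this split was not tested. Of the 48 genes, *Kif4* lies on the X chromosome.

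**Figure D3:**
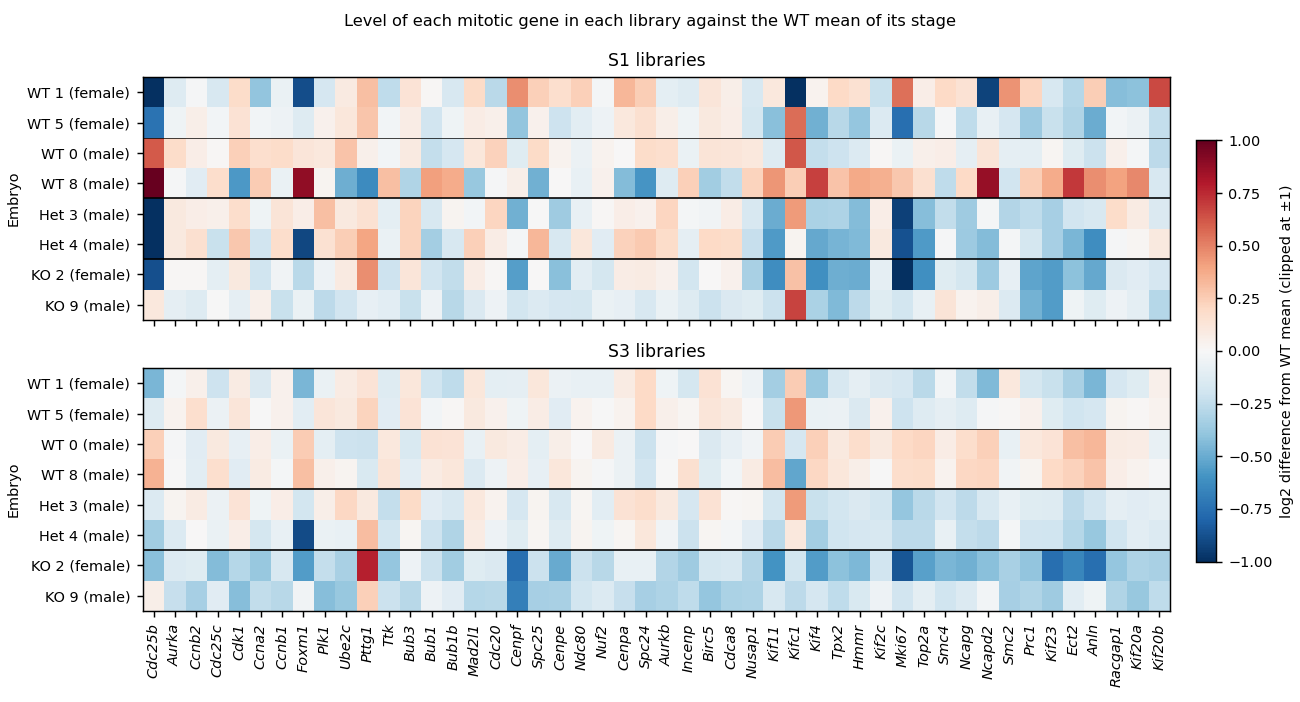
Log2 difference of each library from the WT mean of its stage (colour, clipped at ±1; red higher, blue lower) for each gene (columns) and embryo (rows, with sex). At S3 the WT rows split by sex, and both KO rows are blue in nearly all columns except that of Pttg1.

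KO and WT were compared within each stage to ask whether loss of *Nprl3* altered the genes. At S3 none of the 48 passed the threshold in edgeR over all 11804 genes tested, while 0.457% of all genes were called higher and 0.102% lower. At an unadjusted p under 0.05 there were 4 lower and 1 higher, beside 509 lower and 497 higher of the 11804. The estimates leaned to one side, with 47 of the 48 below 0, a median log2 fold change of −0.24 (all genes 0.01) and a range from −0.66 to 0.58. In 29 of the 48 genes both KO libraries lay below all 4 WT libraries, against 12.1% of all genes. In 1 gene both lay above, against 6.57%. Summed over the 48 genes the KO libraries had 22572 and 23403 CPM, below WT at 27182 to 29029 and Het at 28017 and 26128. As a share of all counts, without TMM, the KO libraries had 1.713% and 1.902%. WT libraries had 1.895% to 2.149% and Het libraries 1.936% and 1.963%, so that KO 9 lay within the WT range.

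The lean was also present within each sex, a reading chosen after the data were seen. At S3 female KO 2 lay below both female WT libraries in 45 genes (44.6% of all genes) and male KO 9 below both male WT libraries in 46 (40.6%). Both held in 44 of the 48 genes, against 25.8% of all genes, and the exceptions were *Pttg1*, *Cdc25b*, *Kifc1* and *Ncapd2*. KO libraries lay below both Het libraries in 32 of the 48, against 19.2%. With total counts in place of TMM the number below all WT libraries fell from 29 to 12, and the number below within both sexes from 44 to 32. On that scale the shares of all genes fell as well, to 5.73% and 14%, and the median of all genes stood at 0.09.

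*Cenpf* had the smallest p at S3. It had 480, 428, 442 and 477 CPM in WT embryos 0, 1, 5 and 8, 405 and 419 in Het, and 270 and 284 in KO embryos 2 and 9, so that the 3 genotypes did not overlap. Its log2 fold change in KO was −0.66 (standard error 0.13, edgeR, with an adjusted p = 0.0904). DESeq2 (adjusted p = 0.000368), edgeR without the filter (0.0167) and edgeR with sex as a covariate (0.00207) placed it past the threshold. DESeq2 called 1.22% of all genes higher and 0.974% lower, and edgeR without the filter 0.936% and 0.586%. At S1 the same gene had 31.4 and 40.7 CPM in KO, within the WT range of 35.0 to 64.0 for embryo 9 only.

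*Pttg1*, or securin, the inhibitor of separase (chr11:43311077-43317078, minus strand), was the gene that went the other way. It had 89.7, 114, 122 and 93.5 CPM in WT, 111 and 129 in Het, and 179 and 123 in KO at S3, with both KO libraries above WT, embryo 9 by a small margin (log2 fold change 0.58, standard error 0.18, adjusted p = 0.318 in edgeR). *Kif23* had 179 and 236 CPM in KO against 258 to 347 in WT (−0.49, standard error 0.19, adjusted p = 0.499 in edgeR). *Cenpe* had 298 and 337 against 390 to 458 (−0.36, 0.14), *Cdk1* 540 and 487 against 605 to 712 (−0.30, 0.13) and *Kif20a* 188 and 179 against 215 to 245 (−0.29, 0.13). In each of these 4 the KO values lay below all WT values.

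With sex as a covariate, 1 of the 48 genes was called higher in KO at S3 (*Pttg1*, adjusted p = 0.00546, edgeR) and 3 lower, *Cenpf*, *Kif23* (0.0124) and *Mki67* (0.0245), against 2.41% and 2.22% of all genes. By role, both KO libraries were below all WT libraries in 6 of 9 entry genes, 3 of 8 checkpoint genes, 6 of 7 kinetochore genes, 4 of 4 passenger genes, 3 of 7 spindle genes, 2 of 6 chromosome genes and 5 of 7 cytokinesis genes, beside the 12.1% of all genes. The medians by role lay between −0.15 (checkpoint) and −0.30 (cytokinesis). The 45 replication genes had a median of −0.04 and 1 of them lay below all WT libraries, again beside 12.1%. So did 15 of 35 other kinetochore genes, 8 of 29 other motors and cytokinesis genes, 5 of 21 other genes of entry and exit and 4 of 13 centrosome genes. The counts were 3 of 17 for cohesin, 3 of 5 for the other condensin genes, 2 of 15 for augmin and the γ-tubulin ring and 1 of 16 for the anaphase-promoting complex. None of the genes of the other division lists passed the threshold.

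The markers of other cells differed in the same S3 libraries. Summed macrophage markers (15 genes) were at 37.4 and 24.7 CPM in KO, against 50.8 to 106 in WT, and 3 of the 13 tested were called lower (0.102% of all genes). All 14 hepatoblast markers had estimates below 0, with sums of 100 and 253 CPM against 223 to 964. The 8 terminal erythroid markers summed to 99270 and 98670 CPM in KO, against 110700 to 129400. Megakaryocyte markers went the other way, with 7 of 8 tested estimates above 0 (median log2 fold change 0.78). Their sums were 61.1 and 120 CPM in KO against 58.2 to 102 in WT, so that embryo 2 lay within the WT range. Of the macrophage markers, *Cd163* was at 0 in both KO libraries and in 3 of 4 WT libraries. The part of these differences in the lower mitotic genes was not tested.

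**Figure D4:**
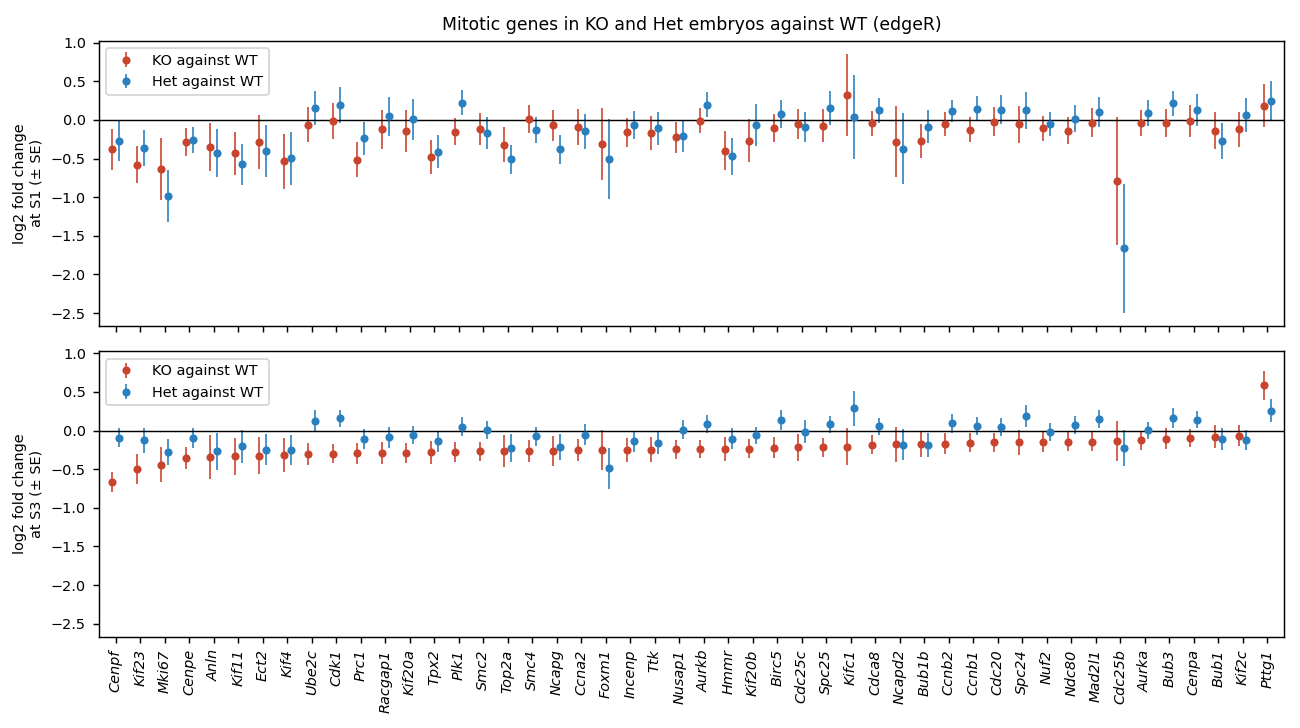
Log2 fold change against WT (edgeR, bars ± standard error) of each gene in KO and Het at S1 (upper panel) and S3 (lower panel), ordered by the KO value at S3. At S3 all KO estimates except that of Pttg1 lie below 0, while Het estimates lie on both sides.

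At S1 the KO libraries leaned the same way. None of the 48 genes passed in edgeR, where 0% of all 14039 genes were called higher and 0.00712% lower, and DESeq2 called none of the 48. At an unadjusted p under 0.05 there was 1 lower and 0 higher, beside 93 and 262 of the 14039. The estimates were below 0 in 45 of 48, with a median of −0.13 (all genes −0.01). Both KO libraries lay below all WT libraries in 5 genes, against 3.75% of all genes, and above in 0, against 6.17%. Within both sexes 14 lay below, against 9.19%. *Kif23* had 33.4 and 33.5 CPM in KO against 42.2 to 64.0 in WT (−0.58, standard error 0.24, adjusted p = 1.00 in edgeR). *Prc1* had 51.6 and 53.6 against 57.8 to 88.4 (−0.52, 0.23) and *Tpx2* 99.7 and 103 against 115 to 170 (−0.48, 0.22). These 3 did not overlap with WT. *Mki67* (37.4 and 71.3 against 47.7 to 119), *Hmmr* (94.7 and 112 against 102 to 174) and *Cenpe* (57.6 and 68.7 against 66.8 to 86.7) overlapped. Leaving out a library can only keep or raise a count of non-overlapping genes, in this and the other comparisons. The count of 5 was 10 without WT 1 (8.94% of all genes), 13 without WT 5 (6.15%) and 11 without WT 8 (7.62%). It was 10 without KO 2 (10.5%) and 16 without KO 9 (18.5%). Markers of other cells differed at S1 as well. The neutrophil markers summed to 1628 and 1706 CPM in KO, against 117 to 1382 in WT, and all 10 tested had estimates above 0. The macrophage markers summed to 70.3 and 71.6 CPM against 31.9 to 58.8, with 4 of 13 tested estimates above 0, and the hepatoblast markers to 40.2 and 189 CPM against 70.7 to 377. The terminal erythroid markers summed to 1316 and 2476 CPM against 1835 to 6265, with a median log2 fold change of −1.34. None of these markers passed in edgeR at S1, and their part in the lean was not tested.

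Het libraries were compared with the same WT libraries, and their estimates fell on both sides of 0. At S3 none of the 48 genes passed in edgeR (0% of 11746 genes were called higher and 0% lower, and DESeq2 called none of the 48). None had an unadjusted p under 0.05, beside 279 lower and 94 higher of all genes, 28 estimates were below 0, and the median was −0.06 (all genes −0.02). Both Het libraries lay below all WT libraries in 8 genes, against 12.5% of all genes, and above in 0, against 2.39%. That 8 became 0 with upper-quartile scaling (5.53% of all genes), 1 with total counts (8.79%), 25 without WT 1 (23.2%) and 18 without Het 3 (26.9%). The 0 above became 5 with upper-quartile scaling (7.53%), 2 with total counts (3.69%), 1 without Het 3 (7.19%) and 7 without Het 4 (9.27%). The smallest p were those of *Foxm1* (72.7 and 44.3 CPM against 60.3 to 102, log2 fold change −0.49, standard error 0.27, adjusted p = 0.901 in edgeR), *Pttg1* (0.26, 0.15) and *Mki67* (560 and 611 against 634 to 841, −0.28, 0.17). They were followed by *Cdk1* (0.16, 0.11), *Spc24* (0.19, 0.14) and *Bub3* (0.16, 0.12), whose Het values overlapped with WT.

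Because both Het embryos were male, a fit with sex sets them in effect against WT 0 and 8. That fit called 3 of the 48 genes higher and 11 lower at S3, against 8.84% and 9.25% of all genes. The higher ones were *Pttg1*, *Spc24* and *Kifc1*, and the lower ones included *Ect2* (−0.51), *Anln* (−0.57), *Kif11* (−0.48) and *Mki67* (−0.48). These 7 genes also differed between the male and female WT libraries, and in each the Het males lay nearer to the WT females than to the WT males. At S1 none passed in edgeR (0% of 13818 genes higher and 0% lower), 2 had an unadjusted p under 0.05, both lower, beside 549 lower of all genes, which is a like share, and DESeq2 called none. Het libraries lay below all WT libraries in 7 genes, against 9.3%, and above in 3, against 8.68%. The 7 became 11 without WT 5 (14% of all genes) and 15 without Het 3 (19.6%), where 11 lay above (21%). The 3 above became 8 without WT 0 (10.2%), 5 without WT 8 (11.9%) and 1 with total counts (4.95%). *Mki67* had 42.3 and 44.2 CPM against 47.7 to 119 (−0.98, standard error 0.34, adjusted p = 0.905 in edgeR), *Top2a* 107 and 96.9 against 118 to 161 (−0.51, 0.19), and *Kif11* 52.3 and 49.7 against 55.2 to 101 (−0.58, 0.26). *Ncapg* (−0.38, 0.19) and *Hmmr* (−0.47, 0.24) also lay below all WT libraries. *Cdc25b*, at 10.2 and 9.05 CPM, overlapped with WT at 7.57 to 65.8 (−1.66, standard error 0.84). With sex as a covariate it was the 1 gene called lower in Het at S1 (−2.40, adjusted p = 0.0129 in edgeR), where 1.55% of all genes were called lower and 1.32% higher, and the median of the 48 moved from −0.08 to −0.20.

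Markers of other cells differed between Het and WT too. At S1 the terminal erythroid markers summed to 1429 and 1612 CPM in Het, against 6265 and 6154 in the male WT embryos 0 and 8 and 1835 and 2439 in the female embryos 1 and 5, with a median log2 fold change of −1.81. Embryos 0 and 8 also had the highest *Cdc25b* at S1. The hepatoblast markers had a median of −2.38 at S1, with 10 of 14 below all WT libraries (9.3% of all genes). At S3 the median was −1.31, with 8 of 14 below (12.5%). The neutrophil markers at S1 summed to 1575 and 1568 CPM against 117 to 1382, with 8 of 10 tested estimates above 0. At that stage 4 of 12 macrophage markers lay below all WT libraries (9.3% of all genes). The megakaryocyte markers summed to 30.7 and 26.2 CPM in Het against 41.3 to 73.7 in WT at S1. At S3 their sums were 55.8 and 54.9 CPM against 58.2 to 102. All 8 tested at each stage had estimates below 0. None of these markers passed in edgeR, and their part in the Het values was not tested.

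**Figure D5:**
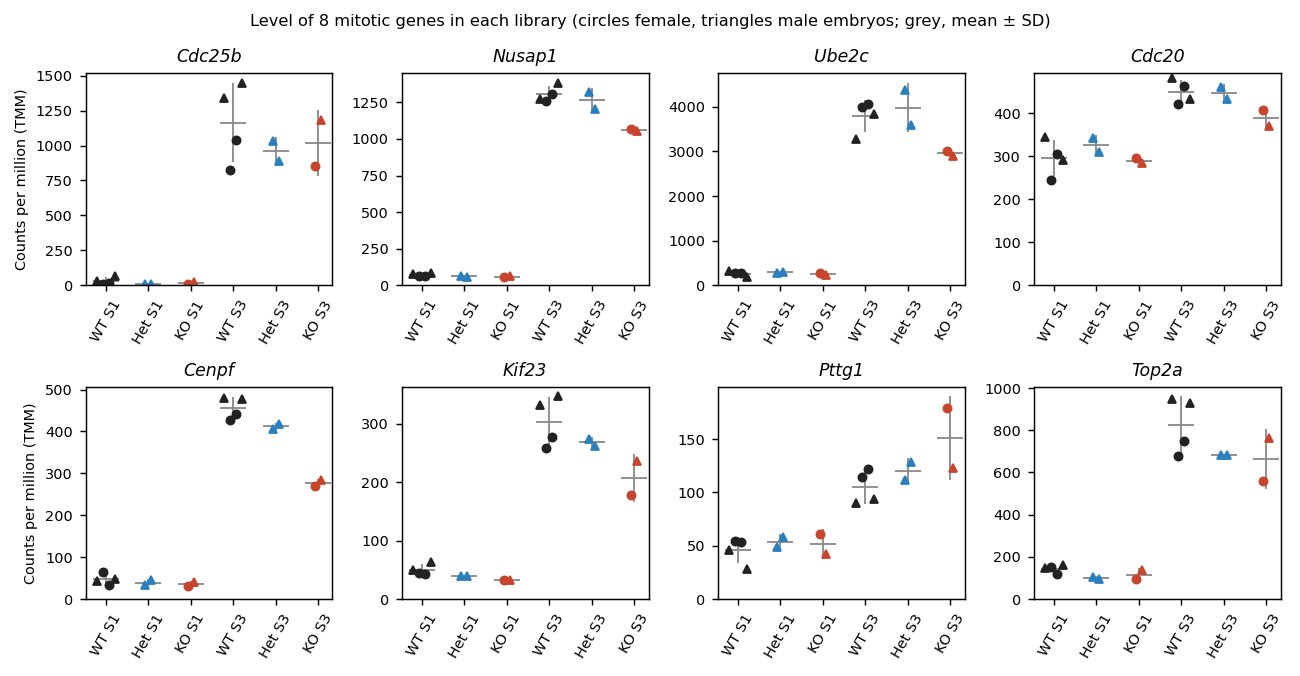
CPM (TMM) of 8 genes in each of the 16 libraries, by genotype and stage, with circles for female and triangles for male embryos and grey marks for the mean ± SD. The rise to S3 is large in Cdc25b, Nusap1 and Ube2c and small in Cdc20, and at S3 the KO values are below WT in Cenpf and Kif23 and above it in Pttg1.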

How the data were processed

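RNA-seq libraries of S1 and S3 erythroblasts from 8 embryos were analysed. The authors sorted the cells, amplified the RNA, aligned read pairs with STAR 2.7.9 to mm39, counted them per gene with featureCounts 1.6.4 without using strand, and deposited the raw counts. Amplified reads carry no molecular identifiers. Another 4 library columns matched no sample and were not used. Symbols came from the reference gene names (54749 of 55416 genes). Genes with a mean normalized count above 10 were tested with edgeR 4.0.16 (R 4.3.3) by its quasi-likelihood test after TMM scaling, with Benjamini-Hochberg adjustment over all genes and a threshold of 0.05. CPM and RPKM used TMM over all 16 libraries. The script was first tested on simulated data. Alternatives were DESeq2 1.42.0, other scalings and filters, sex as a covariate, all libraries in 1 fit, the embryo as a block, and leaving out each embryo. Total count scaling and the counts of non-overlapping libraries were added after the data were seen. Each S1 and S3 library pair came from 1 embryo, so the numbers pair the samples: deviations from the group means correlated within an embryo at r = 0.03 to 0.45 in WT, 0.08 in Het and 0.59 in KO over 13249 genes. Libraries of different WT embryos of 1 sex correlated at 0.40 (S1 of 5 with S3 of 1), 0.18 (1 with 5), 0.38 (8 with 0) and 0.07 (0 with 8), so the pairing rests on the embryo and not on these values. Values per library were given for the 10 genes with the largest rise and for the highest and lowest of each role per kilobase. For the 6 of smallest p in each genotype comparison, values or an estimate with its standard error were given. The genes and lists were chosen with earlier results of these data known. The labels do not say more on replicates than 1 library per embryo and stage, so p-values of the genotype comparisons within a stage measure the spread between embryos. The main fits of S3 against S1 and of the interaction had no embryo term. They take both libraries of an embryo as independent, so their p-values ignore the pairing.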

Additional observations from a re-analysis of the deposited data

Results flagged for a closer look

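Of 96 sets of 4 WT libraries tested for 1 library far from the other 3, 8 were set apart, where chance gives about 1 in 20, or 4.8. All 8 were at S1. Embryo 8 was low for *Cdk1* (97.2 CPM, others 160 to 171), *Spc24* (98.5, others 165 to 176) and *Birc5* (192, others 262 to 267), and high for *Ect2* (67.8, others 33.5 to 38.2). Embryo 1 was high for *Ndc80* (62.2, others 48.8 to 50.4), *Smc2* (409, others 262 to 282) and *Kif20b* (119, others 62.7 to 67.4). Embryo 0 was high for *Ccnb1* (484, others 407 to 411). KO and Het, with 2 libraries a stage, were not examined in this way.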

How the results depend on the processing

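Of 1840 single-gene values recomputed under 17 alternative settings, which cover the rise of all 48 genes in each genotype and the genes named in the other comparisons, 1788 kept their direction and their side of the threshold, 21 lost the threshold, 15 passed it and 16 reversed. All 16 reversals came with total counts, in 6 genes: *Cdc20* (−0.36 in WT, −0.39 in KO, −0.40 in Het), *Mad2l1* (−0.27, −0.29, −0.18), *Bub1b* (−0.24, −0.038, −0.29), *Spc24* (−0.22, −0.23, −0.12), *Kif20b* (−0.15, −0.0149, −0.10) and, in WT, *Bub1* (−0.10). For KO against WT at S3, DESeq2 and the fit without a filter each called 1 gene lower (0.974% and 0.586% of all genes), sex as a covariate called 1 higher and 3 lower, and total counts moved the median to −0.16. For Het against WT, sex as a covariate called *Cdc25b* lower at S1 (median −0.20) and 3 higher and 11 lower at S3 (median −0.16). Upper-quartile scaling gave median rises of 1.85 in WT, 1.70 in KO and 1.94 in Het, the fit without a filter 1.80 in KO (46 genes called) and 1.97 in Het, and total counts 0.99, 1.00 and 1.11, with 1, 1 and 2 genes lower. The interaction median was 0.0197 with total counts. Genes below every WT library numbered 8 (upper-quartile, 5.06% of all genes) and 3 (total counts, 3.23%) at S1 and 12 (total counts, 5.73%) at S3. Upper-quartile scaling gave a median level of 16.3 RPKM at S1 and 71.7 at S3. The causes were not tested. Leaving out each embryo gave 5 to 16 genes below every WT library at S1 and 29 to 41 at S3 (14.5% of all genes without WT 0, with 29, to 29.6% without KO 9, with 41). Such counts can only stay or rise when a library is left out, so these ranges do not test them. The medians were −0.19 to −0.12 (KO, S1), −0.30 to −0.19 (KO, S3), −0.12 to −0.04 (Het, S1) and −0.10 to −0.02 (Het, S3). For the rise they were 2.00 to 2.08 (WT), 1.92 to 1.94 (KO) and 2.11 to 2.13 (Het), and for the interaction −0.14 to −0.05. Leaving out an embryo of KO or Het left no residual degrees of freedom for the rise, which is then a value with no test. With the embryo as a replicate block, 48, 48 and 48 genes were called higher at S3 in WT, KO and Het (33.3%, 31.9% and 36.8% of all genes), with medians of 2.03, 1.91 and 2.09, and 0 in the interaction, so that the block changed no call. With 2 embryos in KO and in Het, changes within the spread of embryos were not detectable.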
